A study of Homo sapiens with 6 samples.

Results

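The genes described here are the proneural factor *NEUROG2* with 9 genes of the Notch pathway, read in SH-SY5Y cells that received an *Esrrg* virus or a control virus. *NEUROG2* was chosen because it stood among the largest decreases of this same comparison. The others were chosen by name, as the receptors *NOTCH1*, *NOTCH2* and *NOTCH3*, the ligands *DLL1*, *DLL3* and *JAG1*, and the *HES* and *HEY* family genes *HES1*, *HES6* and *HEY1*. They are 10 of the 67060 genes in the count table, and 9 of them had enough reads to be tested, *DLL1* being the exception. Because results of this comparison were known when the list was made, the values of these 10 genes are given as a description without p-values.

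SH-SY5Y cells derive from a human neuroblastoma, and the labels class the line as a neuronal progenitor. Cells of both groups were treated for 24 h with 0.5 µl of adenovirus. The control group received Ad CMV GFP (n = 3 libraries, numbered 1, 3 and 4), and the other group received Ad CMV 3xFlag-*Esrrg* (n = 3 libraries, numbered 2, 3 and 4), which carries the coding sequence of mouse *Esrrg* with a 3xFlag tag behind the CMV promoter. *Esrrg* encodes ERRγ, an orphan nuclear receptor, and the comparison asks which transcripts differ when it is supplied in excess. All libraries come from 1 cell line and 1 time point, and nothing in the labels says that libraries of a group came from separate cultures, so their spread may be technical.

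Notch is a transmembrane receptor that is activated by a ligand on a neighbouring cell. Ligand binding leads to cleavage of the receptor. Its freed intracellular part joins the DNA-binding protein RBPJ to switch on *HES* and *HEY* genes such as *HES1* and *HEY1*. The proteins of these genes repress proneural genes such as *NEUROG2*. Proneural genes drive progenitors towards neurons and in turn raise Delta ligands, an arrangement known as lateral inhibition.

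Between 24969759 and 29700980 reads were counted on genes in the Ad CMV GFP libraries, and between 26513620 and 40859666 in the Ad CMV 3xFlag-*Esrrg* libraries. Reads that the authors' counting placed in no feature made up 51.3% to 52.2% of all reads with Ad CMV GFP, against 46.6%, 31.6% and 29.5% in Ad CMV 3xFlag-*Esrrg* replicates 2, 3 and 4. The mean level of *ESRRG* was 87.0 ± 3.40 CPM after Ad CMV GFP and 706 ± 119 CPM after Ad CMV 3xFlag-*Esrrg* (SD, n = 3 each), and the counts do not separate transcripts of the virus from those of the cells. CPM are counts per 1000000 counts on genes, scaled by the trimmed mean of M-values (TMM) method of edgeR. A gene was called higher or lower at a Benjamini-Hochberg adjusted p below 0.05, from edgeR's quasi-likelihood test over 24500 genes, together with a difference of at least 1.5-fold. Log2 differences below are Ad CMV 3xFlag-*Esrrg* minus Ad CMV GFP, with the standard error (SE) of the fit. The median difference over all tested genes was -0.10.

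*NEUROG2*, which encodes a basic helix-loop-helix (bHLH) factor that starts neuronal differentiation, lies at chr4:112513516-112516180 on the minus strand (GRCh38). Its 3 control libraries held 189, 226 and 235 counts, and the libraries with Ad CMV 3xFlag-*Esrrg* 10, 14 and 26. Every control library thus held many times more *NEUROG2* reads than any library with the *Esrrg* virus, although the latter were on the whole sequenced more deeply. The mean levels were 7.04 ± 0.306 CPM and 0.518 ± 0.214 CPM (SD, n = 3 each), a log2 difference of -3.73 (SE 0.24) or a level 13.3-fold lower with Ad CMV 3xFlag-*Esrrg*. In these bulk samples, fewer cells with the transcript and less transcript per cell cannot be told apart.

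This difference placed *NEUROG2* at position 25 from the lowest of the 24500 tested genes. Its neighbours in that order were *MBL2*, at -3.84 (SE 0.50), and *ADRA2A*, at -3.69 (SE 0.26), and both lie within 1 SE of it. Among the 16102 genes that averaged 50 counts or more it was at position 2, after *LINGO4* at -4.90 (SE 0.33). An annotated antisense gene, *NEUROG2-AS1*, shares 92 exon bases with *NEUROG2* on the opposite strand, 4.01% of the *NEUROG2* exons. It had 8, 26 and 18 counts with Ad CMV GFP and 6, 5 and 2 with Ad CMV 3xFlag-*Esrrg*, too few to be tested. The libraries were made with strand information, but whether the counting used it is not given in the sources used here.

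**Figure D1:**
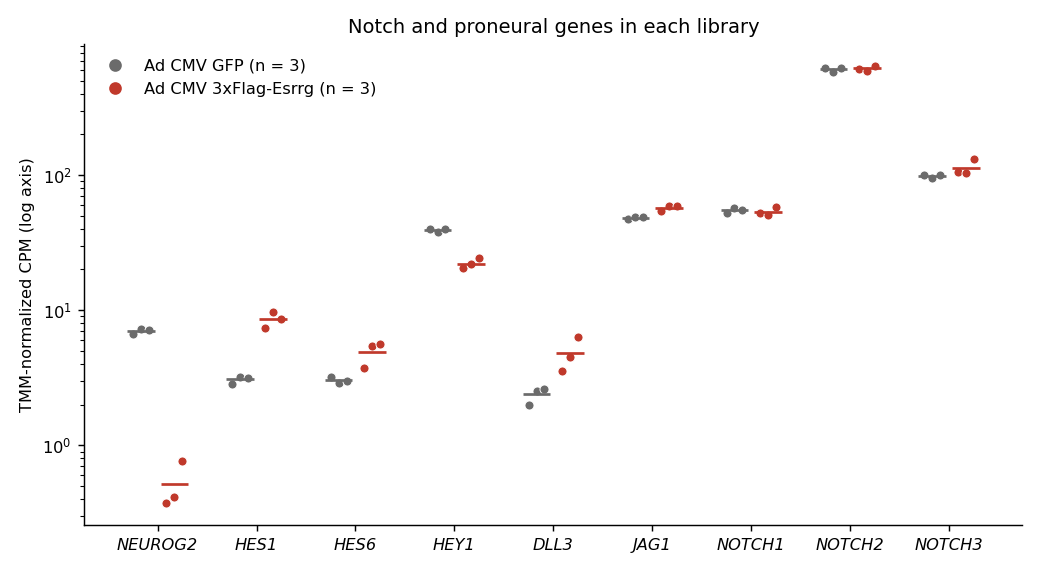
TMM-normalized CPM on a log axis for the 9 tested genes, with 1 point for each of the 6 libraries and a line at the group mean (grey, Ad CMV GFP; red, Ad CMV 3xFlag-Esrrg). The red points of *NEUROG2* sit between 0.374 and 0.763 CPM, far below the grey points at 6.70 to 7.31 CPM, while the points of *NOTCH1* and *NOTCH2* interleave.

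The promoters of *HES1*, *NEUROG2* and *HES6* are shown next, since these are the genes whose levels parted most among the bHLH genes with a sequence at hand. Each run is the 250 bases before the transcription start in RefSeq (GRCh38.p14), 5′ to 3′ on the strand of the gene, and 7 of the 10 genes had such a window that could be used. Motifs were searched on both strands, and capitals mark the RBPJ core TGGGAA, the N box CACNAG that HES proteins bind, the E box CANNTG that bHLH activators bind, the ERR recognition site AAGGTCA and the TATA box TATANA, where N is any base.
HES1, chr3:194135898-194136147, plus strand: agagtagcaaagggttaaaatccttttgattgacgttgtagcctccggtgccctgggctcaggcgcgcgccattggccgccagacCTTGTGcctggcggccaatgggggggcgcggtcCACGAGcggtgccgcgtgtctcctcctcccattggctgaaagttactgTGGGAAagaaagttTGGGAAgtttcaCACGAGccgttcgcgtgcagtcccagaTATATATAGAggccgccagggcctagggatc
NEUROG2, chr4:112516181-112516430, minus strand: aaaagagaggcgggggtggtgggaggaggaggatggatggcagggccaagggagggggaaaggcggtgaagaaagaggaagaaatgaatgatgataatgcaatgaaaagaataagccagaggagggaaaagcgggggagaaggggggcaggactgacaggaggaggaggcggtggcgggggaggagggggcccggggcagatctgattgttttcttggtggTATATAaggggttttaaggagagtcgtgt
HES6, chr2:238240039-238240288, minus strand: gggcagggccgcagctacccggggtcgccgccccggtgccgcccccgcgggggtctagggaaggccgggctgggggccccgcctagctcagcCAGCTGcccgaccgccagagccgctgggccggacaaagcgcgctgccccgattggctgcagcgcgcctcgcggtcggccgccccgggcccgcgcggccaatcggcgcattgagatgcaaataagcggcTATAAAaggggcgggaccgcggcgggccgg

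The *HES1* window held the RBPJ core at 84 and 70 bases before the start, and N boxes at 165, 132 and 58 bases before it. The core was present in 20.8% of 35116 promoter windows of this length and stood in 2.9% of them at least 2 times, and the N box in 32.0%. The *NEUROG2* window held none of these and only a TATA box, at 29 bases before the start. *HES6* had an E box at 158 bases and a TATA box at 30 bases before the start, and overlapping TATA matches began 31, 29 and 27 bases before the *HES1* start. The E box was in 61.8% of all windows and the TATA box in 17.7%. The ERR recognition site, found in 3.44% of windows, was in none of the 7 windows of these genes. Of the receptors and *JAG1*, *NOTCH3* had an N box 211 bases before the start, and *JAG1*, *NOTCH1* and *NOTCH2* held no match. These matches describe the letters of the windows and say nothing of binding.

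*HES1*, at chr3:194136148-194138732 on the plus strand, encodes the repressor that is the best known target of the Notch receptors. It had 80, 99 and 105 counts with Ad CMV GFP and 196, 328 and 294 counts with Ad CMV 3xFlag-*Esrrg*. The lowest library with the *Esrrg* virus stood above the highest control library after scaling too, with 7.33 CPM in the former. The means were 3.07 ± 0.202 CPM and 8.57 ± 1.21 CPM (SD, n = 3 each), a level 2.79-fold higher with a log2 difference of 1.48 (SE 0.16).

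*HEY1*, a related repressor that also answers to Notch, was lower where *HES1* was higher. It lies on chromosome 8, minus strand, and had 1124, 1178 and 1314 counts with Ad CMV GFP against 545, 734 and 822 with Ad CMV 3xFlag-*Esrrg*. All 3 libraries with the *Esrrg* virus were below all 3 control libraries. The mean level was 39.2 ± 0.984 CPM in controls and 22.1 ± 1.89 CPM with the *Esrrg* virus (SD, n = 3 each), a log2 difference of -0.83 (SE 0.098). The ratio of *HES1* to *HEY1* within a library needs no scaling between libraries. Per kilobase of exon, *HES1* stood at 0.190, 0.224 and 0.213 of the *HEY1* level in the control libraries and at 0.958, 1.19 and 0.953 of it in the libraries with the *Esrrg* virus. *HEY1* was thus the more abundant of the pair in each control library, and the levels were near each other in the other group.

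*HES6*, at chr2:238238267-238240662 on the minus strand, encodes a HES family member known to oppose HES1 and to favour neuronal differentiation. It had 90, 89 and 99 counts with Ad CMV GFP and 99, 183 and 192 with Ad CMV 3xFlag-*Esrrg*, or 2.88 to 3.19 CPM against 3.70, 5.44 and 5.64 CPM in replicates 2, 3 and 4. The groups did not overlap, but replicate 2 of the *Esrrg* virus lay close to the controls. The log2 difference was 0.71 (SE 0.19). It was 0.12 with the share of reads in no feature as a covariate, 0.22 after correction for GC content and length, 0.37 when scaled by library size alone and 0.64 without Ad CMV 3xFlag-*Esrrg* replicate 3, and in each of these it no longer met both limits of a call.

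**Figure D2:**
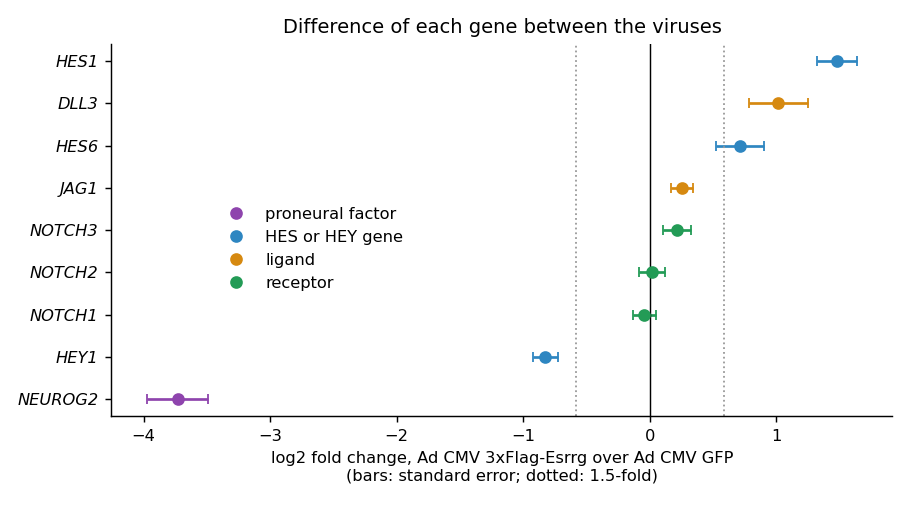
Log2 difference of each tested gene, Ad CMV 3xFlag-Esrrg over Ad CMV GFP, with bars of 1 SE and dotted lines at 1.5-fold, coloured by role. The points run from -3.73 for *NEUROG2* to 1.48 for *HES1*, and the 3 receptors and *JAG1* lie between the dotted lines.

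Among the ligands, *DLL3* (chr19:39498895-39508481, plus strand) encodes a divergent Delta protein that acts inside the cell and restrains Notch signalling, and it is raised by proneural factors. Its counts were 56, 78 and 87 with Ad CMV GFP and 95, 152 and 216 with Ad CMV 3xFlag-*Esrrg*. All libraries with the *Esrrg* virus were above all control libraries, and they spread widely among themselves, from 3.55 to 6.34 CPM. The mean level was 2.38 ± 0.344 CPM in controls and 4.80 ± 1.42 CPM with the *Esrrg* virus (SD, n = 3 each), a log2 difference of 1.02 (SE 0.23). The difference was 0.47 once corrected for GC and length and 0.31 with the covariate of reads in no feature, where it no longer met the limits of a call.

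*JAG1* (chr20:10637684-10673999, minus strand), a ligand of the Jagged class, had 1326, 1505 and 1624 counts in controls and 1445, 2002 and 2008 with the *Esrrg* virus. Its log2 difference of 0.25 (SE 0.088) was under the 1.5-fold limit, and it was -0.07 when scaled by library size alone and 0.40 without Ad CMV 3xFlag-*Esrrg* replicate 2. Its groups did not overlap, at 47.0 to 49.1 CPM against 54.1 to 59.5 CPM. An lncRNA annotated on the opposite strand shares 3.29% of the *JAG1* exon bases and had at most 6 counts in any library.

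*DLL1* (chr6:170282206-170306565, minus strand), the Delta ligand that proneural factors are best known to raise, had 0 counts in every library. A count of 0 allows up to 3 counts, or 0.0734 to 0.120 CPM of the counts on genes depending on the library, for counting error only. Of the 31-base words of its transcripts, 92.58% are also present in the 261 alternate contigs of GRCh38. *FAM120B*, which overlaps *DLL1* on the opposite strand over 370 exon bases, has 94.74% of its words there and had 1 count in all, whereas *TBP* and *PSMB1*, also near *DLL1*, have 5.79% and 0% of their words there and had 5275 and 28418 counts. No other gene of the 10 had any such words. Whether the authors aligned to these contigs is not given in the sources used here, and *DLL1* was therefore neither shown to be expressed nor shown to be absent.

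None of the 3 receptors met the call. *NOTCH2* (chr1:119911553-120100779, minus strand) had 17404, 18040 and 20396 counts with Ad CMV GFP and 16261, 19914 and 21882 with Ad CMV 3xFlag-*Esrrg*, with means of 606 ± 19.4 CPM and 614 ± 25.8 CPM (SD, n = 3 each). Its groups overlapped, and the log2 difference was 0.020 (SE 0.10). *NOTCH1* (chr9:136494433-136546048, minus strand) had 1480, 1775 and 1823 counts in controls and 1394, 1698 and 1962 with the *Esrrg* virus. Its groups overlapped too, and its log2 difference was -0.042 (SE 0.093). The sign of both was not stable. For *NOTCH1* it was positive without Ad CMV 3xFlag-*Esrrg* replicate 2 (0.082) or replicate 3 (0.0037) and with RLE size factors (0.037). It was -0.46 after the GC and length correction. With the replicate block added, which compares the groups only through libraries numbered 3 and 4, it was -0.59. There *NOTCH1* met the call on the lower side. For *NOTCH2* it was negative without Ad CMV GFP replicate 3 (-0.0052) or Ad CMV 3xFlag-*Esrrg* replicate 4 (-0.0043) and when scaled by library size alone (-0.30).

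*NOTCH3* (chr19:15159038-15200995, minus strand) had 2814, 2938 and 3284 counts in controls and 2801, 3504 and 4498 with the *Esrrg* virus. On the CPM scale the groups stood just apart, with replicate 4 of the *Esrrg* virus at 132 CPM and the other 2 at 105 and 104 CPM, against at most 99.8 CPM in controls. The log2 difference of 0.21 (SE 0.11) was under the 1.5-fold limit, and it was -0.11 when scaled by library size alone and -0.25 after the GC and length correction. It was 0.10 without Ad CMV 3xFlag-*Esrrg* replicate 4 and 0.38 without replicate 2 of that group.

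Of the 9 tested genes, 5 met the call, where 34.1% of all tested genes did. *HES1*, *HES6* and *DLL3* were on the higher side (17.3% of all tested genes) and *NEUROG2* and *HEY1* on the lower side (16.8%). The groups did not overlap in 7 of the 9, against 58.1% of all tested genes. Since *NEUROG2* was picked from this comparison, these counts describe the list and nothing is read from them. *NEUROG2*, *HES1* and *HEY1* met the call in all 18 alternative analyses, *DLL3* in 14 and *HES6* in 11. All of these reuse the same libraries, and the setting with no fold cutoff keeps every call of the main fit. They show how a call depends on the processing and are no separate evidence for it.

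Levels of different genes were compared per kilobase of exon. With Ad CMV GFP the order was *NOTCH2* (36.2 CPM per kb), *NOTCH3* (10.4), *HEY1* (7.15), *JAG1* (5.19), *NOTCH1* (4.39), *NEUROG2* (3.07), *HES6* (1.55), *HES1* (1.49) and *DLL3* (0.909 CPM per kb), and of these neighbours only *HES6* and *HES1* overlapped. With Ad CMV 3xFlag-*Esrrg* the top was the same, *NOTCH2* at 36.7 and *NOTCH3* at 12.1 CPM per kb. *JAG1* followed at 6.18 CPM per kb. *NOTCH1* (4.26), *HES1* (4.16) and *HEY1* (4.03 CPM per kb) then overlapped as neighbours, as did *HES6* (2.52) and *DLL3* (1.84 CPM per kb). *NEUROG2* was last of the 9, at 0.226 CPM per kb. *NOTCH2* made up 70.4% to 71.4% of the summed receptor level per kb in the control libraries and 67.3% to 70.4% in the others.

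*NOTCH2* has human-specific copies, the *NOTCH2NL* genes, whose short secreted products are known to act on Notch signalling, and 6.34% of the 31-base words of *NOTCH2* also occur in their transcripts. *NOTCH2NLC* had 464, 381 and 512 counts with Ad CMV GFP and 251, 226 and 208 with Ad CMV 3xFlag-*Esrrg*. It fell, with a log2 difference of -1.0 (SE 0.18, edgeR adjusted p = 0.00103), and missed the call only with the share of reads in no feature as a covariate (-0.45). *NOTCH2NLA*, *NOTCH2NLB* and *NOTCH2NLR* had between 0 and 5 counts in each library. How reads shared by these copies were counted was not tested, so these values are uncertain.

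Beyond the 10 genes, 79 other genes of the Notch pathway were listed by role, and 66 were tested. Of these, 12 rose, 9 fell and 45 were not called, with a median difference of 0.0006 against -0.10 for all tested genes. The shares called, here and in each list by role below, are to be read against the 17.3% higher and 16.8% lower of all genes. These lists were made with earlier results of these data known, so their counts are a description. Without Ad CMV 3xFlag-*Esrrg* replicate 2, 19 of them rose, and when scaled by library size alone, which moved the median of all genes to -0.42, 5 rose and 18 fell. The calls of *DNER*, *DLK1*, *GXYLT2*, *APH1A*, *PSENEN*, *RBPJ*, *KAT2B* and *HES7* held in all 18 alternatives, and each of the other calls was lost in at least 1. After the GC and length correction 4 of the 66 were called higher and 13 lower. Among those that lost the higher call there were *RFNG* (0.48), *XXYLT1* (0.29), *NEURL1B* (0.31), *FURIN* (0.29) and *KAT2A* (0.27). *GXYLT1* (-0.48), *MIB1* (-0.58) and *CIR1* (-0.46) lost the lower call there. Differences of both signs occurred within each role, as the plot of the pathway lists shows, and calls in both directions only in some roles.

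**Figure D3:**
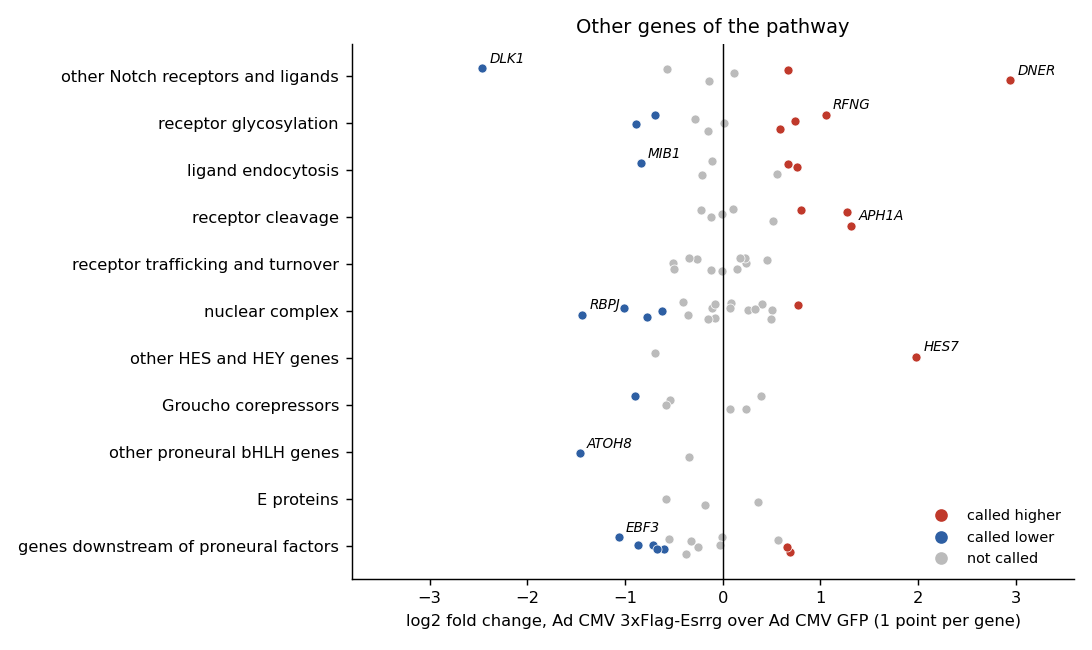
Log2 difference of each tested gene of the other Notch and proneural lists, 1 point per gene and 1 row of points per list, coloured by call. *DNER* at 2.94 and *DLK1* at -2.46 are labelled among the points far from 0, most lists hold points on both sides, and 2 genes that are not reported here are not drawn.

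Of the other receptors and ligands, 6 of 10 were tested, of which 2 rose and 1 fell. *DNER*, a neuronal transmembrane protein described as a non-canonical Notch ligand, had 55, 77 and 74 counts in controls and 359, 636 and 649 with the *Esrrg* virus. Every library of the second group held several times the control level, and the gene rose by a log2 difference of 2.94 (SE 0.18, edgeR adjusted p = 2.79e-06). *DLK1*, a non-canonical ligand known to hold cells in an immature state, had 121, 122 and 149 counts in controls and 16, 23 and 34 with the *Esrrg* virus. It fell by 2.46 on the log2 scale (SE 0.22, edgeR adjusted p = 3.32e-05). *MFAP2*, a microfibril protein that can bind Jagged ligands, rose by 0.67 (edgeR adjusted p = 0.00407), and its call was lost without Ad CMV 3xFlag-*Esrrg* replicate 4 (0.50). *JAG2* was at -0.57 (edgeR adjusted p = 0.0674), at -0.32 without Ad CMV 3xFlag-*Esrrg* replicate 2, and called lower in 5 alternatives, such as the GC and length correction (-1.11). *NOTCH4* was at 0 counts, with 87.83% of its words in alternate contigs.

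Of 9 genes for sugar modification of the receptor, 8 were tested, and 3 rose and 2 fell. *RFNG*, 1 of the Fringe enzymes that tune which ligand a receptor prefers, rose by 1.05 (SE 0.13, edgeR adjusted p = 0.000165). The xylosyltransferase *XXYLT1* (0.73) and the fucosyltransferase *POFUT1* (0.59) also rose, and the xylosyltransferases *GXYLT1* (-0.69) and *GXYLT2* (-0.89) fell. Genes that act at successive steps of 1 sugar chain, *GXYLT1* or *GXYLT2* and then *XXYLT1*, thus differed in direction. *POFUT1* lay at the 1.5-fold limit and lost its call without Ad CMV GFP replicate 1 (0.54) and on leaving out Ad CMV 3xFlag-*Esrrg* replicate 3 (0.55) or 4 (0.55).

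All 6 genes for ligand endocytosis were tested. *MIB1*, the ubiquitin ligase that ligands need in order to signal, had 5823, 5227 and 5874 counts in controls and 3202, 3075 and 3333 with the *Esrrg* virus, and it fell by 0.84 on the log2 scale (SE 0.13, edgeR adjusted p = 0.000414). The ubiquitin ligase *NEURL1B* (0.76) and the adaptor *EPN1* (0.67) rose. *MIB2*, a relative of *MIB1*, was at 0.55 (edgeR adjusted p = 0.00523), under the fold limit, and passed it without Ad CMV 3xFlag-*Esrrg* replicate 2 (0.74) or 3 (0.61) or Ad CMV GFP replicate 1 (0.62). The call of *EPN1* was lost without Ad CMV 3xFlag-*Esrrg* replicate 4 (0.56).

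For receptor cleavage, 9 genes were tested, and 3 rose by edgeR and 4 by DESeq2. None fell by either tool, with 1 gene lower at an unadjusted p below 0.05. *APH1A* and *PSENEN*, which encode subunits of γ-secretase, the protease that frees the intracellular part of Notch, rose by 1.31 (SE 0.16, edgeR adjusted p = 0.000134) and 1.28 (SE 0.19, edgeR adjusted p = 0.000381). *FURIN*, the protease of the first cut, rose by 0.80. *NCSTN*, a further γ-secretase subunit, was at 0.52 (edgeR adjusted p = 0.00288), and passed the fold limit with DESeq2 (0.61) and without Ad CMV 3xFlag-*Esrrg* replicate 2 (0.71). The surface proteases *ADAM10* and *ADAM17* were not called.

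The list for trafficking and turnover of the receptor had 11 tested genes, and none was called by edgeR or DESeq2, with 2 higher and 3 lower at an unadjusted p below 0.05. *NUMB*, which directs the receptor away from the surface, was at -0.51 (edgeR adjusted p = 0.000749) and the ubiquitin ligase *ITCH* at -0.26 (edgeR adjusted p = 0.0366), both under the fold limit, which *NUMB* passed when scaled by library size alone (-0.83). *ITCH* was at -0.0015 after the GC and length correction.

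In the nuclear complex, 18 of 20 genes were tested, 1 rose and 4 fell. *RBPJ*, the DNA-binding protein through which all 4 receptors act, had 4875, 4640 and 5437 counts in controls and 1882, 1885 and 1810 with the *Esrrg* virus. Its counts were lower in each library of the second group although 2 of these were sequenced more deeply than any control, and it fell by 1.44 on the log2 scale (SE 0.12, edgeR adjusted p = 2.28e-05). The coactivator *MAML2* (-0.78) and the acetyltransferase *KAT2B* (-1.01) fell too, as did the corepressor *CIR1* (-0.62), while the acetyltransferase *KAT2A* rose (0.77). *CIR1* lost its call without Ad CMV GFP replicate 3 (-0.57) and without Ad CMV 3xFlag-*Esrrg* replicate 2 (-0.54) or 4 (-0.54). *KDM5A*, a demethylase that works with RBPJ, was at -0.36 (edgeR adjusted p = 0.0145) and passed the fold limit when scaled by library size alone (-0.68). *MAML1* was at 0 counts in every library with no words in alternate contigs.

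Of the 8 other *HES* and *HEY* genes only *HES4* and *HES7* were tested, and *HES5* was at 0 counts with 95.52% of its words in alternate contigs. *HES7*, known for the oscillations of the segmentation clock, had 21, 24 and 41 counts in controls and 73, 131 and 148 with the *Esrrg* virus, and it rose by 1.98 (SE 0.27, edgeR adjusted p = 0.000235). *HES4* had 5 to 19 counts in each library and was not called. Of the 6 listed genes of the Groucho family, *TLE6* fell (-0.90, edgeR adjusted p = 0.00719). *TLE4* was at -0.58 (edgeR adjusted p = 0.000506), just under the fold limit, which it passed without Ad CMV GFP replicate 3 (-0.60).

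The list of proneural genes and genes downstream of them held 39 genes, of which 20 were tested. Among these 2 rose, 7 fell and 11 were not called, with a median difference of -0.36 against -0.10 for all tested genes. Over all tested genes, 17.3% were called higher and 16.8% lower. This list too was made with earlier results of these data known, so its counts describe the list and nothing is read from them. *ATOH8*, a more distant bHLH relative of *NEUROG2*, had 989, 944 and 1041 counts in controls and 296, 390 and 426 with the *Esrrg* virus, and fell by 1.46 on the log2 scale (SE 0.10, edgeR adjusted p = 8.12e-06). The calls of *ATOH8* and *EBF3* held in all 18 alternatives. *NEUROD1* had 17 to 27 counts in each library and was not called, and the 8 other proneural bHLH genes had too few reads to be tested.

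None of the 3 E proteins, the partners with which proneural factors bind DNA, was called by edgeR or DESeq2, with 1 higher and 1 lower at an unadjusted p below 0.05. *TCF4*, the most abundant of them by counts, was at -0.58 (edgeR adjusted p = 0.00224), just under the fold limit, and passed it without Ad CMV GFP replicate 3 (-0.59) or 4 (-0.59). After the GC and length correction it was at -0.17. *TCF3* was at 0.36 (edgeR adjusted p = 0.0148), with a value of -0.15 after the GC and length correction.

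Of 25 genes known to act downstream of proneural factors, 14 were tested, 2 rose and 5 fell. *EBF3* (-1.06, SE 0.094, edgeR adjusted p = 2.87e-05) and *EBF1* (-0.72), which encode transcription factors of early neurons, fell. The splicing regulator *SRRM4* (-0.87), the microtubule regulator *STMN2* (-0.68) and the corepressor *CBFA2T2* (-0.60) also fell. *DCX*, a microtubule protein of migrating neurons, rose with 737, 810 and 871 counts in controls against 1099, 1396 and 1425 (0.66, SE 0.085, edgeR adjusted p = 0.000190), and so did the small GTPase gene *RND2* (0.69). *SOX4* was at -0.33 (edgeR adjusted p = 0.0223), at -0.16 without Ad CMV 3xFlag-*Esrrg* replicate 2, and called lower after the GC and length correction (-0.64). The call of *STMN2* was lost without Ad CMV 3xFlag-*Esrrg* replicate 2 (-0.44), that of *RND2* without replicate 4 of that group (0.53), and that of *CBFA2T2* without replicate 2 (-0.48) or 3 (-0.57) of that group or Ad CMV GFP replicate 4 (-0.58).

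The 5 protein-coding genes whose log2 CPM over the 6 libraries was most like that of *NEUROG2*, by Pearson's r among the 12057 that averaged 50 counts or more, were *PTHLH*, *CRYZL1*, *ADRA2A*, *TSPAN18* and *GSE1*, with r from 0.9986 to 0.9989. An r of at least 0.95 was reached by 775 of these genes, so such likeness was common over 6 libraries that form 2 groups. Their differences ranged widely, from -0.31 for *CRYZL1* to -3.69 for *ADRA2A*.

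**Figure D4:**
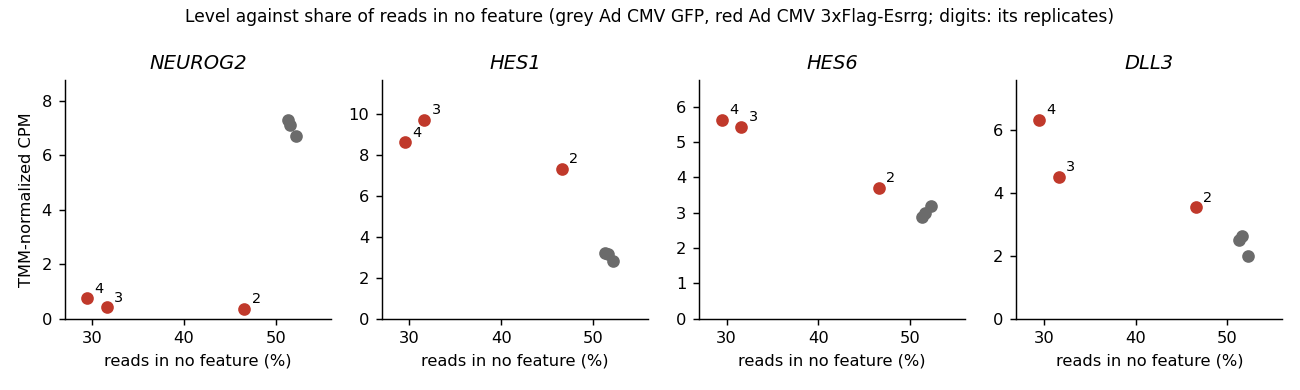
TMM-normalized CPM of 4 genes against the percent of reads in no feature, 1 point per library, grey for Ad CMV GFP and red for Ad CMV 3xFlag-Esrrg with the replicate number. For *HES1*, *HES6* and *DLL3* the red point at 46.6% lies nearest to the grey ones, while for *NEUROG2* all 3 red points lie between 0.374 and 0.763 CPM.

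The levels of *HES1*, *HES6* and *DLL3* were higher with the *Esrrg* virus, whose libraries all had fewer reads in no feature than any control library. Within that group they were lowest in replicate 2, which had the largest such share, as the plot of levels against that share shows. Because the share differed between the groups without overlap, its part and that of the virus cannot be told apart, also in the fit with the share as a covariate. With the covariate, *HES1* was at 1.17 and *HEY1* at -1.01. Markers of cell types were also read. Of 9 markers of adrenergic neuroblastoma cells, 7 were above 0 in every library, with a summed level of 699 to 760 CPM in controls and 522 to 692 CPM with the *Esrrg* virus, and the defining markers *TH* and *CHGA* were at 0 counts. *CHGA* has 90.18% of its words in alternate contigs and *TH* none. All 9 markers of mesenchymal neuroblastoma cells were above 0, at 5502 to 5763 CPM and 6238 to 7195 CPM.

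Fibroblast markers (5 of 5 above 0 in every library) summed to 1093 to 1179 CPM in controls and 616 to 691 CPM with the *Esrrg* virus. Schwann cell markers (5 of 6, *FOXD3* at 0) summed to 7.40 to 8.05 and 5.05 to 5.99 CPM. Endothelial markers (4 of 5) summed to 1.24 to 2.36 and 2.24 to 2.85 CPM, and leukocyte markers (2 of 5, *CD3E* among those at 0) to 0.634 to 0.808 and 0.851 to 1.07 CPM. The adrenergic, fibroblast and Schwann sums were lower without overlap, and the mesenchymal and leukocyte sums were higher without overlap. Single markers did not all follow their sum. Of the adrenergic markers 1 was called higher and 2 lower, and of the mesenchymal ones 2 higher and 1 lower. By contrast, 4 of the 5 fibroblast markers were called lower and 0 higher. Over all tested genes, 17.3% were called higher and 16.8% lower. All libraries come from 1 cell line, and the part of cell types in the differences was not tested.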

How the data were processed

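RNA of 6 SH-SY5Y libraries was sequenced after removal of ribosomal RNA. The authors deposited raw counts per gene, made with HTSeq-count and not normalized. The submitters' processing notes name CASAVA, Trim Galore 0.6.7, STAR 2.7.9a, HTSeq 0.11.3, DESeq2 and GRCh38. The annotation release and the strand setting are not given in the sources used here. The table held 67060 genes and 5 summary entries, which took 52.3% to 64.0% of all reads and were left out of library sizes. Identifiers were matched without version to GENCODE release 44 for 60419 genes (90.1%), and the others held 0.153% of the counts.

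Sample titles gave the groups and replicate numbers. The main analysis used edgeR 4.0.16 in R 4.3.3 (filterByExpr, TMM, quasi-likelihood test, Benjamini-Hochberg adjustment over 24500 genes, all 6 libraries). Calls needed an adjusted p below 0.05 and at least 1.5-fold. SE is the absolute log2 difference over the square root of F, and log2 CPM used a prior count of 2. Alternatives were DESeq2 1.42.0, other scalings and filters, GC and length correction (mgcv 1.9.3), a covariate, fold limits, left-out libraries and a replicate block. The fit was tested on simulated data. There edgeR called 140 of 150 genes changed at least 2-fold and 16 of 50 genes changed 1.5-fold, with 12 false calls among 24500 genes. A call needs an estimated difference of at least 1.5-fold, so genes changed by exactly that fold were often missed by design. The simulation held no effect of reads in no feature, whose share separated the real groups, so its false calls need not describe these data. Tables and plots used Python 3.11.15, pandas 2.3.3, numpy 2.4.6 and matplotlib 3.10.9.

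The members and all gene lists were chosen with earlier results of these data known. Named genes are the members, called genes of each list with a mean of at least 50 counts, genes that overlap or copy a member, the neighbours of *NEUROG2* and the 5 genes most like it. The rule also named the most abundant genes of each list that were not called. Of these only some are named, and they, *HES4*, *NEUROD1*, *TBP*, *PSMB1* and any gene named for its 0 counts were picked with their values known. The TATA box was added after the sequences were seen. Results of some listed genes are left out here. The mouse libraries of the study were not analysed here.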

Additional observations from a re-analysis of the deposited data

How the results depend on the processing

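Of 18 alternatives, all kept *NEUROG2*, *HES1* and *HEY1* on their side of both limits, with log2 differences of -4.59 to -3.46, 1.15 to 1.68 and -1.15 to -0.66. The cause of the changes below was not tested. The number of genes called, 8351, was 3096 with the share of reads in no feature as a covariate, 5282 with protein-coding genes only and 3594 with a test against a 1.5-fold threshold. The members called were 3 in place of 5 with that covariate, that test and the GC and length correction. The other Notch pathway genes called, 21, were 10 with the covariate, 9 with the threshold test and 35 with no fold cutoff. Those higher, 12, were 5 with library size only and with the threshold test, 4 with GC and length correction, alone or with the replicate block, and with the covariate, and 19 with no fold cutoff. Those lower, 9, were 18, 4 and 16 with library size only, the threshold test and no fold cutoff. They were 13 with GC and length correction, alone or with the replicate block, and with protein-coding genes only. The proneural and downstream genes called, 9, were 14 with no fold cutoff and 3 with the threshold test. Those higher, 2, were 0 with library size only, protein-coding genes only and the threshold test, 1 with GC and length correction, alone or with the replicate block, and with the covariate, and 4 with no fold cutoff. Those lower, 7, were 12 with library size only and 3 with the threshold test. With 1 library left out, the calls ranged from 6738 to 10961 over all genes, 4 to 5 over the members, 18 to 27 over the other Notch genes (9 to 19 higher, the most without Ad CMV 3xFlag-*Esrrg* replicate 2, and 8 to 10 lower) and 8 to 10 over the proneural and downstream genes (1 to 3 higher, the fewest without Ad CMV 3xFlag-*Esrrg* replicate 4, and 5 to 8 lower).

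Small differences changed sign. *JAG1* was -0.070 with library size only. *NOTCH1* was 0.050 with DESeq2, 0.037 using RLE size factors, -0.46 after GC and length correction, -0.59 when the replicate block was added, which made it a call, and -0.091 to 0.082 with 1 library left out. *NOTCH2* was -0.30 with library size only, -0.0087 with at least 10 counts in every library, -0.017 with GC and length correction, -0.039 with the replicate block as well, -0.0082 with the covariate, -0.12 with protein-coding genes only and -0.0052 to 0.13 with 1 library left out. *NOTCH3* was -0.11 with library size only, -0.25 after GC and length correction, -0.30 when the replicate block was added, and *TCF3* was -0.15 and -0.21 in the last 2. Of the genes called, 50.7% were higher, against 62.7% with DESeq2, 61.4% with the threshold test and 22.5% with library size only, which moved the median of all genes from -0.10 to -0.42.

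Replicate numbers 3 and 4 occur in both groups, and the deviations of same-numbered libraries from their group means correlated at 0.075 and -0.0001 over genes, so the numbers were not taken to pair the libraries. With the replicate number as a block, 4742 genes were higher and 5693 lower, and 5 members were called. No other number occurs in both groups, so a fit with this block compares the groups only through the libraries numbered 3 and 4. Counts of 26 or fewer, as for *NEUROG2* with Ad CMV 3xFlag-*Esrrg*, limit the precision of its fold difference.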
